A study of Mus musculus with 14 samples.

Results

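The genes described here are the nuclear genes for the subunits of the 5 oxidative phosphorylation complexes in mouse liver. They were chosen by symbol from the genes of the deposited count files: Ndufa, Ndufb, Ndufc, Ndufs or Ndufv with a number, Sdha to Sdhd, names that begin with Uqcr, Cyc1, Cox4 to Cox8 with a letter, and names that begin with Atp5. Pseudogene names ending in -ps were left out. The rule found 85 genes of 24411, with 37 in complex I, 4 in complex II, 9 in complex III, 18 in complex IV and 17 in complex V. The rule used no measured value, but the set was chosen with results of these data known. Of the 85, 76 passed the filter on low counts and were tested among 9644 genes, and 9 did not. By the RefSeq annotation, Atp5s is now named Dmac2l and Atp5sl is named Dmac2, and neither is a structural subunit of ATP synthase.

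The study measured liver RNA of male littermate mice aged 5 to 7 months in a design of genotype by treatment. All mice carried the floxed Rbbp5 allele on both chromosomes, Rbbp5 (flox/flox). The WT mice were Alb-CRE (-/-), and the knockout mice, labelled RRBP5 LKO or RBBP5 LKO and called LKO here, were Alb-CRE (+/-). The albumin promoter drives Cre mainly in hepatocytes, so most other liver cells should keep Rbbp5, though this was not measured by cell type. Rbbp5 encodes a core subunit of the histone methyltransferases that methylate lysine on histone H3. Mice received either tunicamycin, an inhibitor of protein N-glycosylation that causes endoplasmic reticulum stress, at 0.05 mg/kg into the peritoneum, or vehicle, which was 3% DMSO in PBS. Livers were taken 8 hours after an injection given between 9 and 10 in the morning. The 14 libraries came as 3 of each WT group and 4 of each LKO group.

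Oxidative phosphorylation is the last stage of aerobic energy metabolism, in the inner mitochondrial membrane. Complexes I and II pass electrons from NADH and succinate to ubiquinone, complex III passes them to cytochrome c, complex IV passes them to oxygen, and complex V, the ATP synthase, makes ATP from the proton gradient. Most subunits are encoded in the nucleus and imported, a few core subunits are encoded by mitochondrial DNA, and hepatocytes hold many mitochondria that also serve gluconeogenesis, fatty acid oxidation and the urea cycle. The mitochondrial DNA encoded subunits were not analysed here.

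The libraries held 6507018 to 13519421 reads on genes, of which Rn45s, the precursor of ribosomal RNA, took 72.54 to 75.543%. The oxidative phosphorylation genes held 8790 to 21383 reads per library. LKO vehicle libraries 3 and 4 differed by less than other pairs of replicates (chi-square per degree of freedom 1.12, against 3.38 to 25.9 in the 17 other pairs), so their reads were added up to make 1 sample of the 13 used. Rbbp5 lay at 4.071, 6.407 and 5.102 reads scaled to library size (CPM) in WT vehicle, 5.026 to 5.711 CPM in WT tunicamycin, 4.147, 1.898 and 2.789 CPM in LKO vehicle and 2.063 to 3.465 CPM in LKO tunicamycin, so the library labelled LKO vehicle 1 lay within the WT range. WT tunicamycin sample 3 stood apart from the other samples of its group (chi-square per degree of freedom 25.9 and 25.8, against 6.23 between samples 1 and 2). Counts of calls and median fold changes over the set are given with and without WT tunicamycin 3. Single genes are given so too where leaving it out moved the log2 fold change by over 1.5 times.

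Levels per transcript length were compared in the deposited FPKM of the WT vehicle livers. Complex IV held the most abundant transcripts, led by Cox7c, a small membrane subunit of cytochrome c oxidase, at 77.9 ± 2.81 FPKM (SD, n = 3), with 81.07, 75.70 and 76.92 in the 3 livers. Cox6c, another small subunit of complex IV, followed at 67.5 FPKM. Atp5j, coupling factor 6 in the stalk of ATP synthase, had 64.0 FPKM. The most abundant transcripts of the other complexes were Uqcrb, which helps form the ubiquinone site of complex III, at 44.4 FPKM, Ndufa4 at 34.2 FPKM and Sdha at 13 FPKM. Ndufa4 is named as a complex I subunit but its protein is found with complex IV. The median FPKM was 7.58 over the 35 tested complex I genes, 11.4 over the 4 of complex II, 17.2 over the 9 of complex III, 19.2 over the 11 of complex IV and 17.3 over the 17 of complex V. At the low end were Atp5s at 0.418 FPKM and Ndufa11 at 0.732 FPKM. The order was coarse, since only 8 of 74 neighbouring pairs in it had values that did not overlap in the 3 livers.

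**Figure D1:**
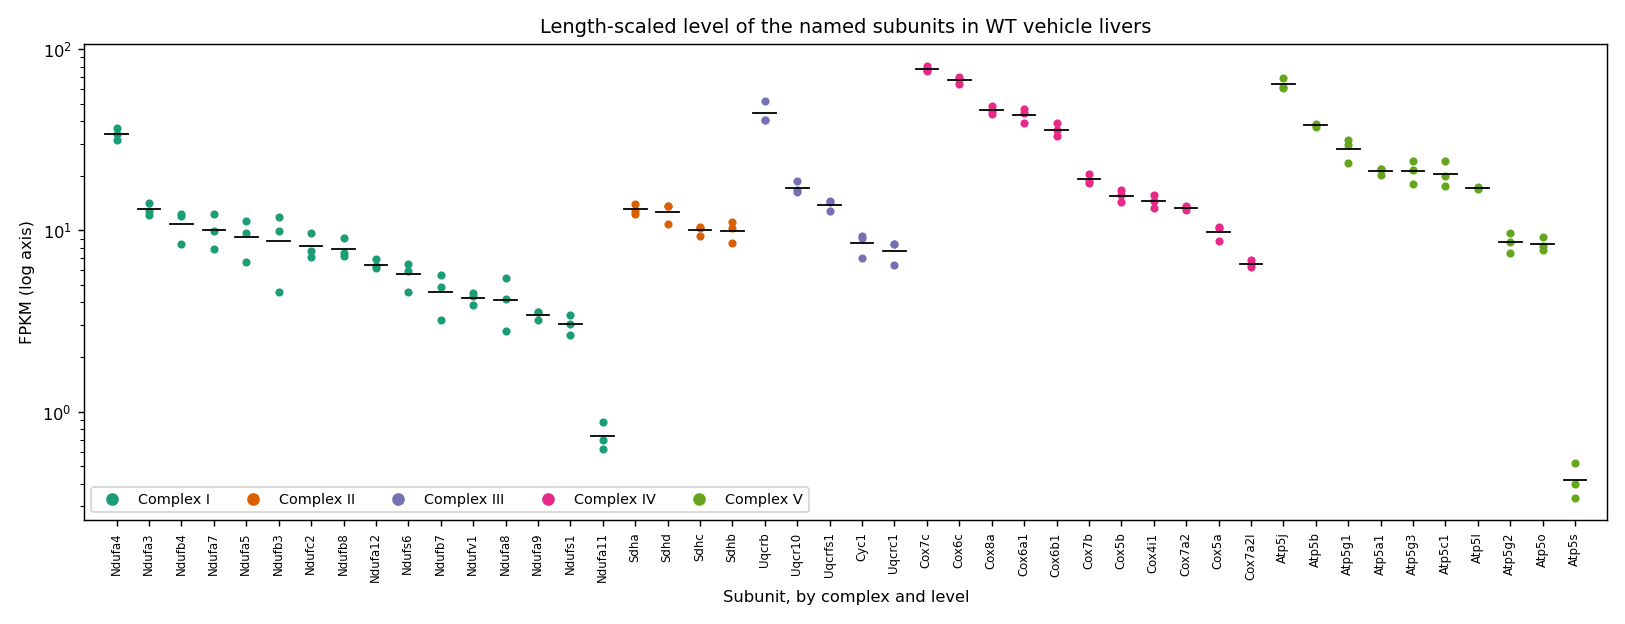
FPKM (log axis) of 46 of the tested subunits (those chosen by the naming rule, paralog sets, and the highest and lowest of each complex) in the 3 WT vehicle livers, grouped by complex and ordered by level, with points for livers and a black bar for their mean. Cox7c and Cox6c of complex IV lie highest at 77.9 and 67.5, and Ndufa11 and Atp5s lie lowest.

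The paralogs of single subunits were split almost fully toward the common form. Cox4i1, Cox6a1, Cox6b1, Cox8a, Cox7b and Ndufa4 held at least 99.7% of the reads of their sets. The other forms are known from muscle, testis, lung or hypoxic cells. In the 13 samples Cox8c and Cox7b2 had 0 reads, Cox4i2 and Cox8b had 1 read each, Cox6a2 and Cox6b2 had 2 each, Ndufa4l2 had 11 and the muscle form Cox7a1 had 28. These 8 genes and Ndufs5 are the 9 that were not tested. Ndufs5 had 0 reads in every library, although its deposited FPKM was 8.27 ± 1.96 (SD, n = 3) in WT vehicle, so its level is uncertain. The membrane ring of ATP synthase is built from identical proteins of 3 genes, and Atp5g3 took 54.4%, Atp5g1 39.9% and Atp5g2 5.61% of their reads. Reads of such near copies may be split or lost in counting.

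The summed level of the 85 genes was lower after tunicamycin in LKO livers, without overlap, and in 2 of 3 WT livers. The sums were 1901, 1934 and 1800 CPM in WT vehicle and 1414, 1425 and 1965 CPM in WT tunicamycin. In LKO vehicle they were 1687, 1561 and 1764 CPM, and in LKO tunicamycin 1277, 1445, 1301 and 1399 CPM. WT tunicamycin samples 1 and 2 thus lay below every vehicle sample of either genotype, and sample 3 lay above them all. Group means were 1878 ± 69.8 CPM in WT vehicle, 1601 ± 315 in WT tunicamycin, 1671 ± 103 in LKO vehicle (SD, n = 3 each) and 1356 ± 79.9 in LKO tunicamycin (SD, n = 4). The sum was 18.9% lower with tunicamycin in LKO and 14.8% lower in WT with overlap (24.4% without sample 3). It was 11.1% lower in LKO than in WT vehicle, without overlap in CPM. Summed FPKM did overlap there, at 1198 to 1262 in WT vehicle and 1130 to 1222 in LKO vehicle with the LKO vehicle 2 column left out. No test was made on the sums, because the set was chosen with results of these data known. In bulk liver RNA, fewer cells of a type and less RNA per cell cannot be told apart.

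**Figure D2:**
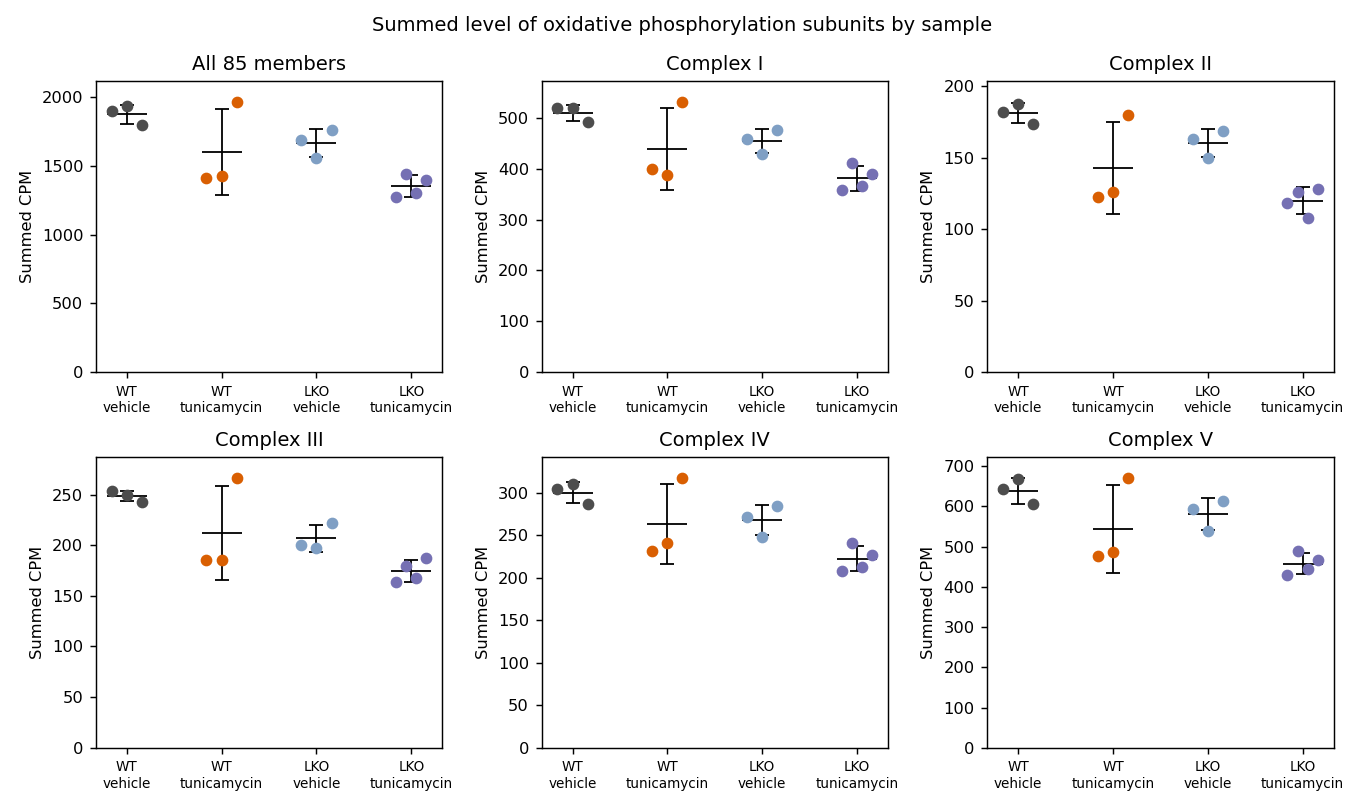
Summed CPM of all 85 genes and of each complex (axes start at 0) by group, with points for the 13 samples and bars for the mean and SD. In each panel the LKO tunicamycin samples lie below the LKO vehicle samples, and WT tunicamycin splits into 2 low samples and 1 at or above most vehicle samples.

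Group means of complexes I, II, IV and V fell in the order WT vehicle, LKO vehicle, WT tunicamycin and LKO tunicamycin. Complex III had LKO vehicle (206.6 CPM) below WT tunicamycin (212.2 CPM). This exception rested on WT tunicamycin 3, since the WT tunicamycin mean of complex III was 185.4 CPM without it. Complex II, succinate dehydrogenase, had the lowest ratio in LKO, with 163, 149.8 and 168.7 CPM in vehicle and 118.3, 126.2, 107.7 and 128 CPM after tunicamycin, or 25.2% lower. Complex V was 21.3% lower, complex IV 17%, complex I 16.2% and complex III 15.5%, and none of these overlapped between the LKO groups. Between the vehicle groups complex III had the lowest ratio, at 253.4, 249.5 and 243 CPM in WT and 200.7, 197.3 and 222 CPM in LKO, or 16.9% lower. Only complex V overlapped between the vehicle groups. Whether the complexes differed from each other was not tested.

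Single genes varied together over the samples. The log2 CPM of a tested subunit gene had a median Pearson correlation of 0.819 with the mean of the others over 13 samples, and 67 of 76 lay above 0.5 (88.2%), against 16.3% of the other 9568 tested genes. Within groups, after each group's mean was removed, the median was 0.714. The spread within a group was widest in WT tunicamycin, where the mean log2 CPM of the tested genes was 3.78, 3.755 and 4.197. Sample 3 of that group therefore weighs on these correlations, which were not computed without it. Uqcrc2, a core protein of complex III, followed the mean most closely at 0.974. The values nearest to 0 or below were 0.0215 for Ndufa8, -0.104 for Ndufb7, -0.0651 for Atp5s and -0.128 for Cox7a2l, a factor that joins complexes III and IV into supercomplexes. Outside the set, the 5 genes most like the mean were Mdh1 at 0.975, Grsf1 at 0.973, Gcdh at 0.964, Gstz1 at 0.961 and Apoa2 at 0.961. Mdh1 is cytosolic malate dehydrogenase, Grsf1 binds mitochondrial RNA and Gcdh is a mitochondrial lysine-degrading enzyme. The samples share library depth and the groups, so these correlations are descriptions.

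**Figure D3:**
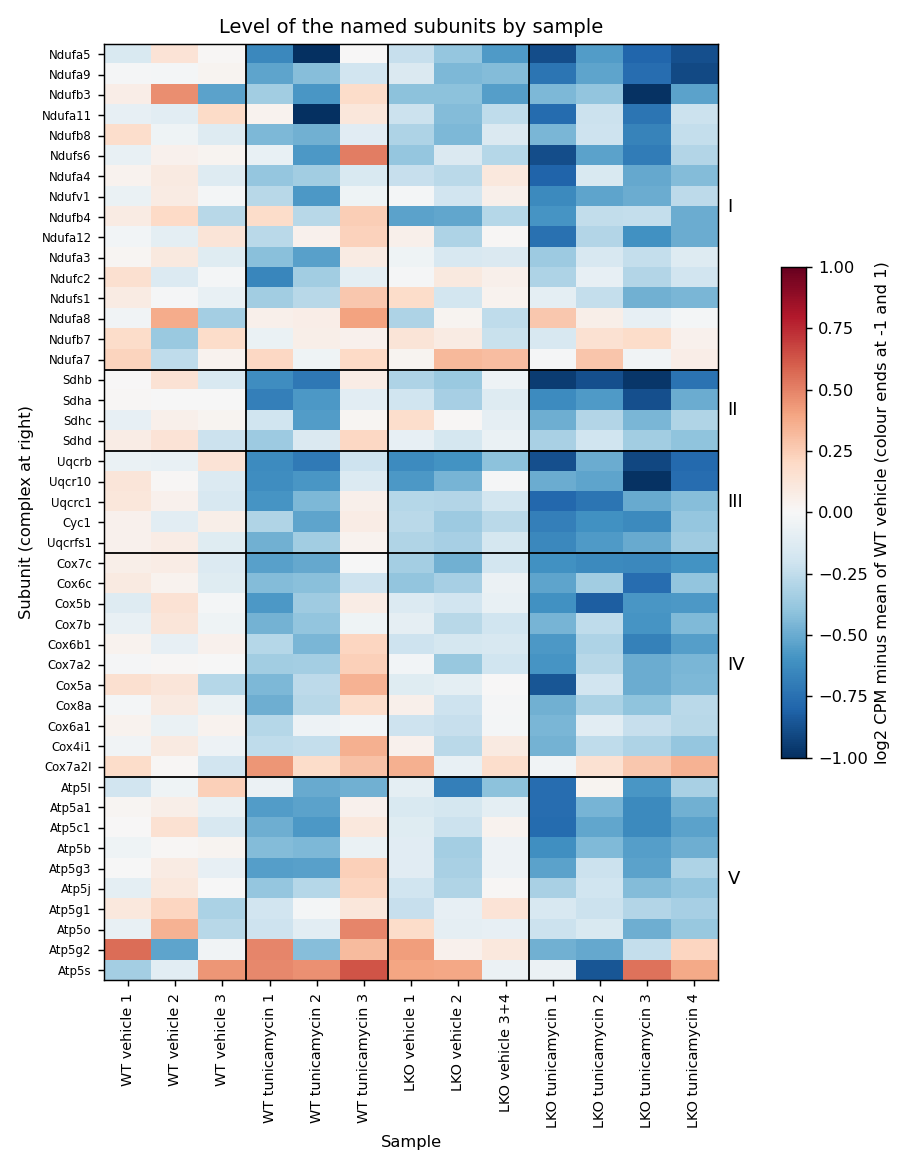
Level of the same 46 genes, of the 76 tested, in the 13 samples as log2 CPM minus the mean of WT vehicle (colour, from -1 in blue to 1 in red), grouped by complex and ordered within a complex by mean. LKO tunicamycin and WT tunicamycin 1 and 2 are mostly blue, WT tunicamycin 3 is mostly pale, and Cox7a2l, Ndufa7 and Atp5s do not follow the rest.

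Because the genes varied together, their promoters were read for motifs of factors known to act on such genes. RefSeq promoter windows (GRCm38.p6, 250 bases before to 50 after the start) were matched for 69 of the 85 genes, of which 64 were tested, with 70 windows. Of these windows, 87.1% had an observed-to-expected CpG ratio above 0.6, against 35.8% of 32851 windows of all genes, and their median GC content was 58% against 52.7%. Both strands were searched for exact letters. The NRF1 core CGCATGCG stood in 9 windows (12.9%), against 1.87% of all windows and 4.53% of the CpG-rich windows. The YY1 motif AAGATGGCG stood in 9 (12.9%, against 1.4 and 3.45%). The ETS motif CCGGAAG, read by GABPA, stood in 16 (22.9%, against 8.86 and 18.7%). The estrogen-related receptor motif TCAAGGTCA stood in 2 (2.86%, against 0.423 and 0.145%). At least 1 of the 4 motifs stood in 41.4% of windows, against 11.8% of all windows and 25% of the CpG-rich windows. A match is a description of letters and does not show binding.

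Of these promoters, 3 held motifs of 2 kinds before the start, those of Atp5j, Atp5l and Cox6a1. The 250 bases before the start are shown for Cox6a1 (chr5:115348959-115349208, minus strand) and Atp5l (chr9:44920743-44920992, minus strand), as examples with 2 kinds, and for Sdhb (chr4:140961021-140961270, plus strand), the gene with the lowest fold change in LKO. Sequences run 5′ to 3′ in GRCm38.p6, and capitals mark the NRF1 core and the ETS motif, the latter on the opposite strand.
Cox6a1: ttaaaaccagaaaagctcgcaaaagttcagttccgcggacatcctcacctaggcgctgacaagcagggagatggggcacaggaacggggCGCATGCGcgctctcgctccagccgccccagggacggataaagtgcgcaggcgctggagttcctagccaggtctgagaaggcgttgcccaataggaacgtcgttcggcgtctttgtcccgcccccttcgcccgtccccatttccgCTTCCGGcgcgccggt
Atp5l: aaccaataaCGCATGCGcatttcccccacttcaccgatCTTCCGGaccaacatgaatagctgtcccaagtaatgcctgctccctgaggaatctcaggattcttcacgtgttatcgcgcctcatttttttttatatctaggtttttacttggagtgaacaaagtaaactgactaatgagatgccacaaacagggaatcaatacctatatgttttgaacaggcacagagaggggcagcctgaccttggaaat
Sdhb: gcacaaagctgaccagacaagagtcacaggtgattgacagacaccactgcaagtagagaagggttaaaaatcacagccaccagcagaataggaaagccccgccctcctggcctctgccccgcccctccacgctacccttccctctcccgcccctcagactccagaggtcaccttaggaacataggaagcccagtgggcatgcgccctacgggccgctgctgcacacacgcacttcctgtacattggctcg
In Cox6a1 the NRF1 core lies farther from the start than the ETS letters, and in Atp5l both lie at the far end of the stretch. Sdhb has none of the 4 motifs in this stretch, and its ETS match lies after the start.

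In WT livers, the comparison of tunicamycin with vehicle asks what endoplasmic reticulum stress does to these transcripts. The log2 fold change was below 0 for 63 of 76 genes (48.3% of all genes tested), with a median of -0.21, or 13.8% lower, against 0.01 over all genes. No gene of the set was called by edgeR's quasi-likelihood test at a Benjamini-Hochberg adjusted p under 0.05 (0.363% of all genes were), and the smallest adjusted p was 0.125. At an unadjusted p under 0.05, 15 were lower (6.85% of all genes) and none was higher (7.93%). DESeq2 and limma on log2(FPKM + 1) called 0 each, and edgeR with total-count scaling called 2, Uqcrb and Ndufv2 (1.53% of all genes). The CPM of the groups did not overlap for 9 lower genes (8.65% of all genes) and for 2 higher genes, Cox7a2l and Atp5s (8.63% of all genes).

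The lowest values in WT belonged to Ndufa5, an accessory subunit in the matrix arm of complex I, and to Uqcrb and Uqcr10 of complex III. Ndufa5 had 10.78, 13.2 and 12.1 CPM with vehicle and 7.568, 5.512 and 12.04 CPM with tunicamycin (log2 fold change -0.52 ± 0.21, SE). Only sample 3 of the treated livers reached the vehicle range. Uqcrb (chr13:66900576-66905350) had 32.69, 32.55 and 37.61 CPM with vehicle and 22.02, 20.91 and 29.64 CPM with tunicamycin, without overlap (-0.50 ± 0.15, edgeR adjusted p = 0.125). Uqcr10 had a log2 fold change of -0.45. Sdha (chr13:74322255-74350240), the flavoprotein that oxidises succinate, had 100.8, 100.2 and 99.7 CPM with vehicle and 62.33, 67.28 and 92.92 CPM with tunicamycin (-0.43 ± 0.15, adjusted p = 0.175 by edgeR). Its 3 treated livers all lay below the vehicle livers, with sample 3 the nearest to them. Atp5b, the catalytic beta subunit of ATP synthase, had 168.2, 174.1 and 176.5 CPM against 128.1, 126.3 and 165.5 CPM (-0.31 ± 0.13), also without overlap.

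Other subunits of a fixed list lay between. In complex I, the log2 fold changes were -0.29 for Ndufv1, the subunit that binds NADH, -0.39 for Ndufa9, which sits where the arms meet, -0.36 for Ndufb8 of the membrane arm and -0.09 for the iron-sulfur subunit Ndufs1. In complex II, they were -0.39 for the iron-sulfur subunit Sdhb and -0.23 and -0.09 for the membrane anchors Sdhc and Sdhd. In complex III, they were -0.31 for Uqcrc1, -0.25 for the Rieske protein Uqcrfs1 and -0.23 for the haem protein Cyc1. Complex IV gave -0.35 for Cox6c, -0.10 for Cox5a and -0.02 for Cox4i1. Complex V gave -0.32 for Atp5a1 (the alpha subunit) and 0.06 for Atp5o, which holds the stator. Atp5o was at -0.121 with total-count scaling, where the median of all genes was -0.177. The highest values were 0.58 ± 0.40 (SE) for Atp5s, which had only 4 to 21 reads per sample, 0.30 for Cox7a2l and 0.15 for Ndufa8, which was at -0.0358 with total-count scaling. Cox7a2l had 11.02, 9.738 and 8.454 CPM with vehicle and 13.21, 11.02 and 11.89 CPM with tunicamycin, where the lowest treated liver equalled the highest vehicle liver to the digits given. Its share of the Cox7a reads was 33.3 ± 3 % in WT vehicle and 40.9 ± 6.07 % in WT tunicamycin (SD, n = 3).

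WT tunicamycin sample 3 decided these counts. Without it, edgeR called 15 of the 76 genes, all lower, with 6.19% of all genes called, and the median was -0.383. The calls included Ndufa5 and Ndufa3 of complex I, Sdha, Sdhb, Uqcrb, Uqcrc1, Cox7c, Atp5b, Atp5a1, Atp5c1 and Atp5g3. Without sample 3 and LKO vehicle 1, 14 were called (6.16% of all genes). Of the genes named above, the log2 fold change without sample 3 was -0.866 for Ndufa5, -0.319 for Ndufs1, -0.683 for Sdhb, -0.368 for Sdhc and -0.268 for Sdhd. In complex III it was -0.529 for Uqcrc1, -0.421 for Uqcrfs1 and -0.412 for Cyc1. In complexes IV and V it was -0.382 for Cox5a, -0.25 for Cox4i1, -0.554 for Atp5a1 and -0.19 for Atp5o, whose sign turned, and Ndufa8 came to 0.0214. Hspa5, the endoplasmic reticulum chaperone BiP, was high in sample 3 too, at 854.2, 313.1 and 785.5 CPM in WT tunicamycin against 196.7 to 252.6 CPM in WT vehicle. Bile duct markers (5 genes, 2 of them with reads in every sample) summed to 42.52, 31.94 and 8.489 CPM in the 3 treated livers, against 8.6 to 11.74 CPM in WT vehicle. The 2 neutrophil markers summed to 7.293, 3.891 and 0.1544 CPM, against 0.1281 to 0.8746 CPM. Sample 3 thus lay with the vehicle livers in these lists also, and their part in the result was not tested.

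In LKO livers, tunicamycin was set against vehicle in samples that the WT comparison does not use. The log2 fold change was below 0 for 71 of 76 genes (49.2% of all genes), with a median of -0.27, or 17.2% lower, against 0.00454 over all genes. None was called by edgeR (0.0311% of all genes were), with a smallest adjusted p of 0.196. At an unadjusted p under 0.05, 29 genes were lower (6.33% of all genes) and none was higher (5.83%). DESeq2 called 1, Sdhb (0.363% of all genes), edgeR with no filter on low counts called the same gene (0.941%), and limma on log2(FPKM + 1) called 0. The groups did not overlap for 30 lower genes (6.55% of all genes), which included all 4 genes of complex II, and for no higher gene (5.03%). Leaving out WT tunicamycin 3 from the shared estimate of spread gave 3 calls, Cox5b, Atp5c1 and Sdhb, with the median at -0.274, and 0.674% of all genes were called in that fit. Without that sample and LKO vehicle 1, only Sdhb was called (0.233% of all genes).

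Sdhb (chr4:140961271-140979198) had 25, 24.02 and 30.02 CPM in LKO vehicle and 15.99, 16.79, 15.69 and 18.57 CPM in LKO tunicamycin. The 4 treated livers lay close together and below all others, and the log2 fold change was -0.66 ± 0.16 (SE), which edgeR gave an adjusted p of 0.196. Atp5c1, the gamma subunit that turns inside ATP synthase (chr2:10056030-10080510), had 62.91, 58.84 and 69.95 CPM with vehicle and 39.97, 47.63, 43.92 and 47.12 CPM with tunicamycin (-0.52 ± 0.15). Cox5b, a zinc-binding subunit of complex IV (chr1:36691487-36693388), had 16.82, 16.21 and 17.62 CPM with vehicle and 12.12, 10.41, 12.33 and 12.38 CPM with tunicamycin (-0.51 ± 0.14). Both were separated between the groups in every sample. The alpha and beta subunits of ATP synthase had log2 fold changes of -0.44 (Atp5a1) and -0.36 (Atp5b). The other complex II genes had -0.42 (Sdha), -0.41 (Sdhc) and -0.21 (Sdhd).

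The same subunits of complexes I, III and IV pointed the same way in LKO. In complex I, Ndufv1 had -0.43, Ndufa9 -0.39, Ndufs1 -0.33 and Ndufb8 -0.09. In complex III, Uqcrc1 had -0.35, Cyc1 -0.27, Uqcrfs1 -0.25 and Uqcrb -0.22. In complex IV, Cox5a had -0.42, Cox4i1 -0.32 and Cox6c -0.25. Atp5o of complex V had -0.31 in LKO, while in WT it was above 0 with all samples and at -0.19 without WT tunicamycin 3. The highest values were 0.22 ± 0.17 (SE) for Ndufa8, 0.08 for Ndufb7 and 0.05 for Ndufb4, all complex I accessory subunits with 91, 61 and 98 reads at most in a sample. Ndufa8 and Ndufb7 face the intermembrane space. In the same samples bile duct markers summed to 17.42 to 55.19 CPM with vehicle and 35.77 to 110.7 CPM with tunicamycin, and neutrophil markers to 0.4739 to 1.825 CPM and 2.532 to 5.856 CPM. Hepatocyte markers (8 genes) summed to 21650 to 28210 CPM and 21000 to 30450 CPM. The part of these cell types in the result was not tested.

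**Figure D4:**
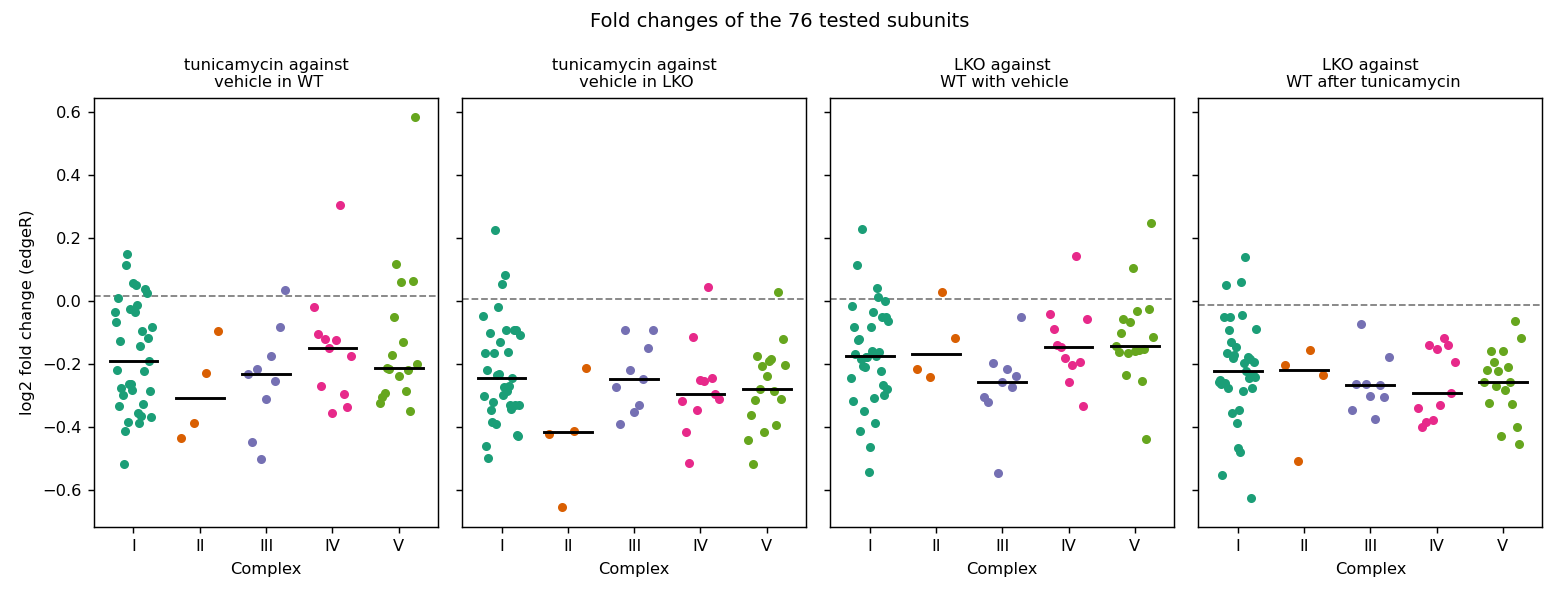
log2 fold change of each of the 76 tested genes in the 4 comparisons, by complex, with points for genes, black bars for the median of a complex and a dashed line for the median of all genes tested. Most points lie below the dashed line in every panel, with medians over the set of -0.21, -0.27, -0.16 and -0.24 from left to right.

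With vehicle alone, LKO was set against WT to ask what loss of Rbbp5 in hepatocytes did without added stress. The log2 fold change was below 0 for 68 of 76 genes (49.1% of all genes), with a median of -0.16, or 10.7% lower, against 0.00483 over all genes. No gene was called by edgeR (0.0415% of all genes were), by DESeq2 or by limma on log2(FPKM + 1), and the smallest edgeR adjusted p was 0.277. At an unadjusted p under 0.05, 7 were lower (3.44% of all genes) and none was higher (4.71%). The groups did not overlap for 23 lower genes (7.58% of all genes) and for no higher gene (7.52%), and 6 of the 23 were among the 9 genes of complex III. Uqcrb was lowest, with 22.04, 22.48 and 25.69 CPM in LKO vehicle, all below the WT vehicle values given above (-0.55 ± 0.14, SE; edgeR adjusted p = 0.277). Next came accessory genes of the complex I membrane arm, Ndufb3 at -0.54 and Ndufb4 at -0.46. Ndufb4 did not overlap, with 7.544, 8.201 and 5.831 CPM in WT and 4.858, 4.891 and 5.814 CPM in LKO. The highest were Atp5s at 0.25, Ndufa7 at 0.23 and Cox7a2l at 0.14. These single values leaned on 1 sample each: Ndufb3 was at -0.292 without WT vehicle 2, Ndufa7 at 0.0948 without WT vehicle 2, Atp5s at 0.0433 without WT vehicle 1 and Cox7a2l at 0.0408 without LKO vehicle 1. Bile duct markers were higher in LKO vehicle without overlap (17.42 to 55.19 CPM, against 8.6 to 11.74 CPM in WT), as were the 7 stellate and fibroblast markers (123.9 to 167.2 CPM, against 74 to 120.4 CPM). Their part in the result was not tested. Without LKO vehicle 1 the edgeR median was -0.179, with 0 calls. Leaving out LKO vehicle 2 instead gave a median of -0.113, with 59 of 76 genes below 0 and 0 calls in the set (2 of 9903 genes were called). Without WT tunicamycin 3 the median was -0.166, with 0 calls in the set (17 of 9941 genes were called). On the log2(FPKM + 1) scale the median was -0.0602 with 52 of 74 genes below 0, against 0.0212 over all genes. Without the LKO vehicle 2 column it was -0.0212 with 45 of 74 below 0, against 0.0161 over all genes. The FPKM of that column followed its own counts poorly (r = 0.477 across genes, against 0.863 to 0.957 in the 13 other libraries).

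After tunicamycin, LKO lay below WT by a median log2 fold change of -0.24, or 15.5%, and 73 of 76 genes were below 0 (52% of all genes). No gene was called by edgeR (0.861% of all genes were), DESeq2 or limma on log2(FPKM + 1), and the smallest edgeR adjusted p was 0.121. At an unadjusted p under 0.05, 19 were lower (8.24% of all genes) and none was higher (7.55%). The groups did not overlap for 9 lower genes (6.58% of all genes) and for no higher gene (6.34%). Ndufs6, a zinc-binding subunit of complex I, was lowest at -0.63 ± 0.21 (SE), with 8.119, 5.674 and 12.35 CPM in WT and 4.53, 5.856, 5.197 and 6.949 CPM in LKO. Ndufa12, at the foot of the same arm, had 7.155, 8.917 and 10.19 CPM in WT and 5.063, 7.027, 5.604 and 6.08 CPM in LKO, without overlap (-0.55 ± 0.17). Sdhb followed at -0.51, also without overlap, and the highest were Ndufc2 at 0.14, Ndufb7 at 0.06 and Ndufa3 at 0.05. The size of this comparison rested on WT tunicamycin 3. Without it the median was -0.089 with 58 of 76 genes below 0, against -0.00331 over all genes. None of the set was called in that fit (64 of 9941 genes were). Ndufs6 was then at -0.3, Sdhb at -0.218, Ndufa3 at 0.262 and Ndufc2 at 0.282. Without WT tunicamycin 2 instead, edgeR called Ndufs6 (adjusted p = 0.0358, with 1.84% of all genes called). On the log2(FPKM + 1) scale with all samples, the median was -0.0299 over 74 genes, with 43 below 0, against 0.0699 over all genes.

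Whether tunicamycin acted differently in the 2 genotypes was tested by the interaction. No gene of the set was called by edgeR (0% of all genes were), DESeq2 or limma. In edgeR with all samples, none had an unadjusted p under 0.05, and the smallest adjusted p was 0.97. The log2 interaction was below 0 for 48 of 76 genes (53.5% of all genes), with a median of -0.04 against -0.02 over all genes. The median SE of a gene was 0.211, and a call needs a difference of several SE. Differences in response well above 0.211 could therefore go uncalled for a single gene. The lowest were -0.70 for Atp5s, -0.53 for Atp5g2 and -0.47 for Ndufa12, and the highest 0.38 for Atp5l, 0.28 for Uqcrb and 0.26 for Ndufb8. Without WT tunicamycin 3 the median was 0.0954 (-0.013 over all genes), 22 of 76 genes were below 0 and Uqcrb was at 0.452. None of the set was called in that fit (2 of 9941 genes were). With total-count scaling the median was 0.107 (0.127 over all genes), with 24 of 76 below 0. The larger count of genes apart in LKO than in WT is therefore not shown to be a difference in response.

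Other mitochondrial gene lists gave context for the subunits. The 17 genes of the tricarboxylic acid cycle, which feeds electrons to complexes I and II, had medians of -0.27 in WT and -0.24 in LKO with tunicamycin, and 14 of 17 and 17 of 17 were below 0. The 76 tested mitochondrial ribosome genes had medians of 0.10 and -0.01 in the same comparisons, with 26 and 39 below 0. With total-count scaling, which moved the median of all genes in WT to -0.177, the WT medians were -0.402 for the subunits, -0.454 for the cycle and -0.088 for the mitochondrial ribosome. The 24 import and chaperone genes had medians of -0.12 and -0.26, and the 18 genes for electron carriers and nucleotide transport -0.18 and -0.12. The 42 tested assembly factors had -0.03 and -0.07. No gene of these lists was called by edgeR with tunicamycin. Without WT tunicamycin 3, calls in WT were 5 of 17 in the cycle (Dlst, Idh3b, Suclg1, Dlat and Pdha1). Import and chaperones had 3 of 24 (Hspe1, Trap1 and Phb2) and regulators 2 of 16 (Tfb1m and Sirt3). Carriers and transport had 1 of 18 (Vdac1) and the mitochondrial ribosome 1 of 76 (Mrpl54). In that fit 6.19% of all genes were called, and the directions of these list calls are not given here. The medians were -0.367 for the cycle, -0.211 for import and chaperones and -0.228 for carriers and transport. They were -0.154 for assembly factors (43 tested) and 0.00272 for the mitochondrial ribosome, against 0.0122 over all genes. For LKO against WT after tunicamycin, the medians were -0.17 for the cycle, -0.17 for the mitochondrial ribosome and -0.13 for import and chaperones. Assembly factors were at -0.07, regulators at -0.10 and carriers and transport at -0.01, against -0.24 for the subunits and -0.0124 over all genes. Leaving out WT tunicamycin 3 moved the cycle to -0.0385, the ribosome to -0.084 and import and chaperones to -0.0741. The only call in these lists with all samples was Dnaja3, a mitochondrial Hsp40 chaperone. Dnaja3 was lower in LKO than WT after tunicamycin (-0.55 ± 0.12, SE, with an edgeR adjusted p = 0.0405), with 29.31, 25.78 and 29.33 CPM in WT and 17.72, 20.3, 17.83 and 20.85 CPM in LKO. DESeq2 also called it (adjusted p = 0.0138), but edgeR did not with total-count scaling (-0.408, adjusted p = 0.124) or without WT tunicamycin 3 (-0.527, adjusted p = 0.0842). Cytochrome c, encoded by Cycs, had -0.17 in WT and -0.21 in LKO with tunicamycin (-0.268 in WT without sample 3), and Atpif1, which inhibits ATP synthase when it runs in reverse, had 0.26 and 0.11 (0.157 in WT without sample 3).

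**Figure D5:**
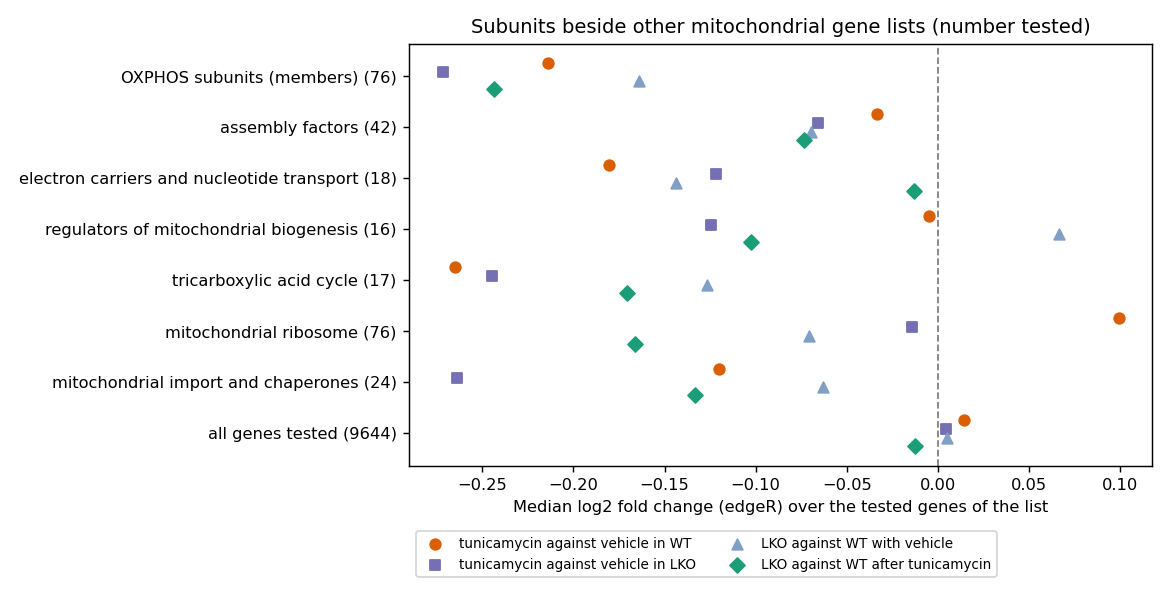
Median log2 fold change of the tested genes of each list (number tested in brackets) in the 4 comparisons, one marker per comparison, with the oxidative phosphorylation subunits at the top and all genes tested at the bottom. With tunicamycin the subunits lie at -0.21 and -0.27 and the tricarboxylic acid cycle at -0.27 and -0.24, and the mitochondrial ribosome lies at 0.10 and -0.01. With total-count scaling the 0.10 becomes -0.088, where the median of all genes is -0.177.

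The regulators of mitochondrial biogenesis were not called in any comparison with all samples (16 tested). Their medians were -0.00466 in WT and -0.12 in LKO with tunicamycin. The WT median was -0.179 without WT tunicamycin 3, against 0.0122 over all genes. With total-count scaling it was -0.197, against -0.177 over all genes. Ppargc1a, a coactivator that raises respiratory gene expression, had -0.19 and -0.24. Esrra, a nuclear receptor that works with it, had -0.14 and -0.39. The promoter-binding factors Nrf1 and Gabpa had 0.24 and 0.06, and 0.04 and 0.00125, and Tfam, which packages and transcribes mitochondrial DNA, had -0.05 and -0.12. In WT, leaving out sample 3 gave -0.285 for Esrra, -0.215 for Tfam and -0.152 for Gabpa, and Gabpa was at -0.149 with total-count scaling. Nrf1 and Esrra were scarce, at 1.562 to 3.08 CPM and 1.621 to 3.145 CPM over the samples.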

How the data were processed

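Liver RNA (polyadenylated, per the labels) of 14 libraries was analysed. The authors deposited whole read counts per gene in 3 strand columns, in STAR's layout per the file headers, and an FPKM table with fragments scaled by length and library size, in the column layout of Cufflinks per the file headers. The submitters' processing notes name Trimmomatic, STAR, Cufflinks and mm10. Versions are not given in the sources used here.

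The column of the gene's strand was used, which held 99.48 to 99.61% of stranded reads. Alignment summary rows were left out. LKO vehicle libraries 3 and 4 were summed. The number of per-sample columns not used was 0. Counts were fitted with edgeR 4.0.16 in R 4.3.3 (filterByExpr by group, TMM, quasi-likelihood test, 1 mean per group, 9 residual degrees of freedom), with p-values adjusted by Benjamini-Hochberg over 9644 genes and called at 0.05. CPM were scaled to all reads on genes, Rn45s included, after TMM. FPKM were tested with limma 3.58.1 on log2(FPKM + 1), as an alternative, with the mean of LKO vehicle 3 and 4 as 1 sample. DESeq2 1.42.0, total-count scaling, other filters, pseudocounts, strand columns, left-out samples and a replicate block were the other alternatives. The labels do not say that each library is a separate animal, so p-values measure the spread between these samples.

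The members and the gene lists were chosen with earlier results of these data known. Named are the 3 highest and 3 lowest members of each comparison, a fixed list of subunits, paralog sets and the most abundant member of each complex. Other pathway genes are named where called or from a short fixed list.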

Additional observations from a re-analysis of the deposited data

Results flagged for a closer look

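Cox5b in LKO tunicamycin had 1 low sample, at 10.41 CPM, below the others at 12.12, 12.33 and 12.38 CPM. Its gap to the next value, as a share of the group's range, exceeded Dixon's 95% critical value. With 41 groups of 4 values examined, chance flags about 1 in 20, so 1 such sample was not more than chance gives. The low sample lay in the same direction as the difference from LKO vehicle, and without it the other 3 still lay below the lowest LKO vehicle value of 16.21 CPM.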

How the results depend on the processing

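No gene of the set was called under the edgeR fit with the replicate block (0 in each comparison), where the medians were -0.219 in WT, -0.287 in LKO and -0.235 for LKO against WT after tunicamycin. The replicate numbers did not pair the samples, since the correlations of same-numbered samples ran from -0.118 to 0.141 over 18 pairs and 3 were above 0.1.

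For tunicamycin in WT, total-count scaling called 2 genes (median -0.402, with the median of all genes at -0.177), and edgeR without WT tunicamycin 3 and LKO vehicle 1, an alternative chosen after seeing the data, called 14 (median -0.383). Leaving out 1 sample gave 0 to 15 calls and medians of -0.383 to -0.102. The signs of Ndufa8 (-0.0358) and Atp5o (-0.121) turned under total-count scaling. Atp5o was also below 0 at -0.21 under log2(FPKM + 1), with or without the filter or the LKO vehicle 2 column, at -0.238 with a pseudocount of 0.1, and at -0.19 without the 2 doubted samples. With 1 sample left out, signs turned within -0.19 to 0.245 for Atp5o, -0.25 to 0.0893 for Cox4i1, -0.382 to 0.0563 for Cox5a, -0.0153 to 0.343 for Ndufa8, -0.319 to 0.0227 for Ndufs1 and -0.268 to 0.0319 for Sdhd.

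For tunicamycin in LKO, DESeq2, no low-count filter and edgeR without the 2 doubted samples called 1 each. Leaving out 1 sample gave 0 to 3. Ndufb4 was below 0 on the FPKM scale (-0.116, -0.128 with a pseudocount of 0.1, -0.116 with no filter, -0.147 without the LKO vehicle 2 column, also an alternative added later), and with 1 sample left out Ndufb4 ranged from -0.00471 to 0.152 and Ndufb7 from -0.0416 to 0.147.

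For LKO against WT, the vehicle median moved to -0.0212 on the FPKM scale without that column. In edgeR with 1 sample left out, the vehicle median ranged from -0.208 (without WT vehicle 3) to -0.113 (without LKO vehicle 2). After tunicamycin the median moved to -0.0953 with total-count scaling (all genes 0.14), -0.0299 with log2(FPKM + 1) (-0.0309 with 0.1, -0.0288 with no filter, -0.0299 without that column) and -0.088 without the 2 doubted samples. Leaving out 1 sample gave -0.331 to -0.089 and 0 to 1 calls, and signs turned for Ndufa3 (-0.0644 to 0.262) and Ndufc2 (-0.00465 to 0.282). The interaction median moved to 0.107 with total-count scaling and 0.117 without the 2 doubted samples, and Atp5l turned to -0.00467 on the FPKM scale without that column. The interaction median ranged from -0.141 to 0.0954 with 1 sample left out. The causes were not tested. At a depth of 4 to 21 reads per sample, Atp5s had an SE of 0.40 in WT, against a median SE of 0.158 over the set.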
